A study of Saccharomyces cerevisiae with 4 samples.

Results

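The PIR genes of *Saccharomyces cerevisiae* encode cell wall proteins with internal repeats, and they were followed here in *mid2* mutant cells whose wall was attacked with zymolyase. The family was taken as 5 open reading frames chosen by name from the 6172 genes of the table: *PIR1* (YKL164C), *HSP150* (YJL159W, also PIR2), *PIR3* (YKL163W), *CIS3* (YJL158C, also PIR4) and *PIR5* (YJL160C). Of these, 4 had a value on every array, and *PIR5* had none on any.

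All cells were *mid2* mutants in the BY4741 background, a haploid laboratory strain, and both channels of every array carried that mutation. Cultures were grown in YEPD at 24 °C and divided, and zymolyase was added to one part at 0.8 units per ml for 3 h while the other went on untreated. Zymolyase digests the β-glucan of the wall. Mid2 is a sensor in the plasma membrane that activates the cell wall integrity pathway. Treated and untreated RNA were hybridised together on 4 two-colour arrays from 2 cultures, and treated RNA carried Cy3 on arrays 1 and 3, and Cy5 on the other two. The labels give neither the *mid2* allele nor the number of clones. No cells with intact *MID2* were analysed here, so the values describe the mutant alone. *MID2* had no value on any array, which leaves the genotype unchecked. For the untreated RNA of array 4 a comment speaks of a *hog1* mutant, against its genotype label, and the calls without that array are given below.

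Pir proteins pass through the secretory pathway, where they are O-mannosylated and cut by the Kex2 protease, and are then bound to the β-glucan of the wall through their repeats by a bond that mild alkali opens. They carry no GPI anchor, unlike most other covalently bound wall proteins. In wild-type cells, genes of the family are known targets of the integrity pathway, in which the MAP kinase Slt2 activates the transcription factor Rlm1.

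All values are log2 ratios of treated over untreated RNA, one per gene and array, with the SD over 4 arrays of 2 cultures. Neither the base of the logarithm nor the direction is stated in the labels. Treated over untreated is the likely direction, set from 9 genes of the wall stress response that include no PIR gene and whose median was 1.52, 1.79, 2.10 and 1.78 on arrays 1 to 4. Of these 9, 8 passed the test described below as higher, which is no separate evidence of the direction. The other, *GSC2*, read 1.31, −1.57, 1.57 and 0.07 on arrays 1 to 4, against this direction on array 2. Arrays of opposite dye orientation were taken as already turned the same way, because their Pearson correlations across genes (which share 4 arrays and are not replicates) lay above 0, at 0.13 to 0.39. The Pearson value was 0.39 both between arrays 1 and 2 and between arrays 3 and 4. It was 0.14 between arrays 1 and 4, and 0.13 between arrays 2 and 3. Which of these arrays shared a culture was not tested. Spearman correlations between orientations were lower, at −0.08 to 0.14. Within an orientation they were higher, at 0.41 for arrays 1 and 3 and 0.39 for arrays 2 and 4. Ratios give no level, and spot brightness is unknown. The strain's mating type could thus not be read: 5 a-specific genes had ratios on all 4 arrays, and of 3 α-specific genes *STE3* and *MF(ALPHA)1* had none. The third α-specific gene, *MF(ALPHA)2*, had a ratio on every array, at −1.39, −0.36, −1.49 and 0.09 on arrays 1 to 4.

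After 3 h of zymolyase, and with the likely direction taken above, the 4 measured PIR genes were higher in treated cells on every array. *PIR3* had the largest mean rise of the 4, 5.70-fold, followed by *HSP150* at 2.83-fold, *CIS3* at 2.07-fold and *PIR1* at 1.90-fold. *PIR3* and *PIR1* lie side by side on chromosome XI, and *HSP150* and *CIS3* on chromosome X. A ratio from bulk RNA cannot tell a change in every cell from one in part of the cells, and whether the spots tell these related sequences apart was not tested.

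*PIR3* encodes a covalently bound wall protein and is the neighbour of *PIR1*. It read 1.98, 3.02, 2.60 and 2.44 on arrays 1 to 4, or 3.95-fold to 8.11-fold. The mean was 2.51 ± 0.43 (SD over 4 arrays of 2 cultures), with an adjusted p of 9.56e-07 (limma). It ranked 8th of 3299 genes tested by its mean, and on single arrays between 0.142% and 0.643% of genes with a value stood above it. It was thus near the top of every array. Array 2 was its highest and array 1 its lowest.

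*HSP150* encodes a secreted and wall-bound glycoprotein whose gene is known to respond to heat shock and nitrogen limitation. It read 1.40, 2.32, 1.22 and 1.07 on arrays 1 to 4. Its mean was 1.50 ± 0.56 (SD over 4 arrays of 2 cultures; limma, adjusted p = 6.57e-05), the widest spread of the 4 genes. Array 2 stood above the other three, which lay between 1.07 and 1.40.

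*CIS3* encodes a mannose-containing wall glycoprotein of the same family. It read 0.70, 1.43, 0.84 and 1.23 on arrays 1 to 4, higher on both arrays with treated RNA in Cy5 than on either with it in Cy3. The mean was 1.05 ± 0.34 (SD over 4 arrays of 2 cultures; limma, adjusted p = 0.00522). Between 0.708% and 8.23% of genes stood above it on single arrays, the widest range of the family, with its lowest place on array 1 and its highest on array 4.

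*PIR1* encodes an O-mannosylated protein that is needed for wall stability and is found at bud scars. It read 0.81, 1.39, 0.98 and 0.53 on arrays 1 to 4. Its mean of 0.93 ± 0.36 (SD over 4 arrays of 2 cultures; limma, adjusted p = 0.0229) was the lowest of the 4 genes and the one nearest to the threshold. *PIR5*, a family member known from sporulating cells, was blank on all arrays, as were 879 of the 6172 genes (14.2%), and nothing can be said of its change.

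**Figure D1:**
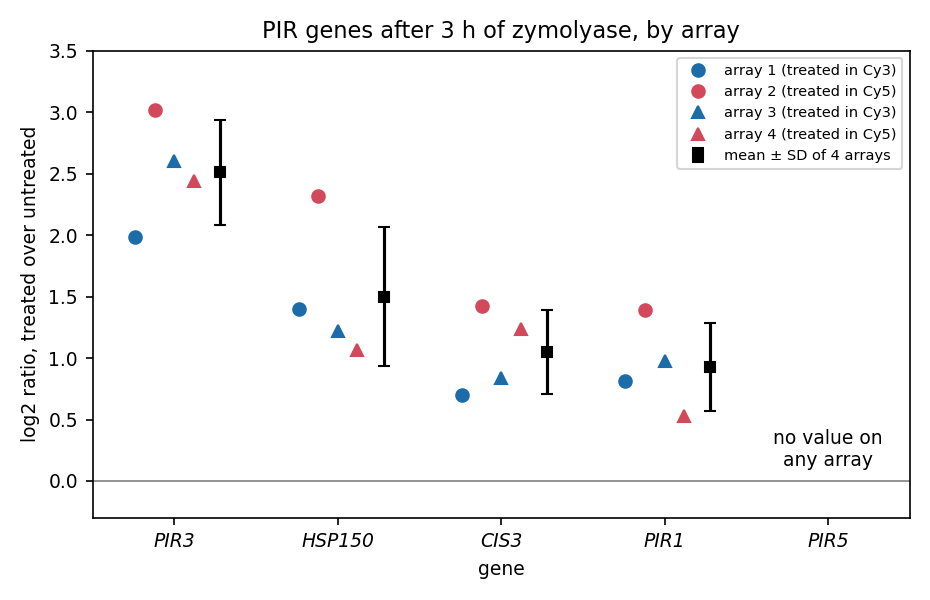
Log2 ratio of treated over untreated RNA for the 5 PIR genes on each of the 4 arrays (blue, treated RNA in Cy3; red, in Cy5), with the mean and SD of the 4 arrays as black squares and bars. All 16 values lie above 0, *PIR3* has the highest value on each array, and *PIR5* has no value.

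All 4 measured genes passed the threshold as higher, where 2.76% of the 3299 genes tested did so and 1.39% passed as lower. All 4 were above 0 on every array, against 6.15% of genes tested. The median of their means was 1.27, against −0.14 over all genes tested. The test (limma, adjusted over all genes) averaged the 2 arrays of a culture under both possible pairings, and the spread it used was borrowed across genes. With arrays 1 and 2 as a culture the borrowing was complete, and a gene's own variation did not enter its p. The standard error was then 0.28 throughout, and genes were ranked by the size of the mean alone. With arrays 1 and 4 as a culture it was 0.16 to 0.18 for the 4 PIR genes. The larger p came from the second pairing for *PIR3* and *HSP150* and from the first for *CIS3* and *PIR1*. None of the 4 p-values thus measures the SD over 4 arrays printed beside it. For *PIR3* and *HSP150*, the half-differences between the culture means (arrays 1 and 4 minus arrays 2 and 3) were −0.30 and −0.27. In size these exceeded the standard errors used in that pairing, 0.18 for each gene. A call did not require agreement between arrays: 66 of the 91 genes called higher and 38 of the 46 called lower kept one direction on all 4 arrays. The 4 PIR genes were among the 66.

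The calls depended on single arrays. Without array 4, none of the 4 passed (limma), with adjusted p-values of 0.0614 for *PIR3*, 0.0686 for *HSP150*, 0.150 for *PIR1* and 0.176 for *CIS3*, while their means were 2.55, 1.54, 1.04 and 0.95. That fit called 5 of 3329 genes in all. *PIR1* also lost its call without array 1, 2 or 3 (limma, adjusted p = 0.191, 0.123 and 0.129), and *CIS3* without array 1 or 2 (adjusted p = 0.0747 and 0.0798). *PIR3* and *HSP150* kept theirs without array 1, 2 or 3. None of the 4 passed when arrays were also centred and scaled to a common spread (limma, adjusted p = 0.0538 to 0.0624).

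The family's order had the same gene at its top on every array. *PIR3* exceeded *HSP150* by 0.59, 0.70, 1.39 and 1.37 on arrays 1 to 4, a mean difference of 1.01 ± 0.43 (SD over 4 arrays). It exceeded *CIS3* by 1.20 to 1.76 and *PIR1* by 1.17 to 1.91. *HSP150* stood above *PIR1* on all 4 arrays, by 0.24 to 0.93, but above *CIS3* on 3 only, with a mean difference of 0.45 ± 0.47 that is within its spread. *CIS3* and *PIR1* differed by −0.12, 0.04, −0.14 and 0.70, a mean of 0.12 ± 0.40, so this pair did not differ beyond its spread. Of the 6 pairs, 4 reached the smallest p of a two-sided exact sign-flip permutation test over 4 arrays (p = 0.125, adjusted p = 0.188). *HSP150* against *CIS3* gave an exact p of 0.25 (adjusted p = 0.30), and *CIS3* against *PIR1* 0.875. With 2 cultures as the unit, no such test can go below 0.5.

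Each of the 4 genes had its highest value on array 2, which had the lowest median of all genes tested (−0.37, against −0.07 to −0.02 on the other arrays). Array 2 held the highest value of 15.9% of all genes tested and of 52.7% of the 91 genes called higher. With each array centred on its median, *PIR3* read 2.01, 3.39, 2.65 and 2.51, and array 2, whose median was lowest, was necessarily still the highest. Array 4 had the narrowest spread, 0.23 (scaled median absolute deviation) against 0.46 to 0.56 on the others. In units of these spreads, *PIR3* stood 4.16, 6.10, 5.79 and 10.8 above the median, and *CIS3* 1.49, 3.24, 1.94 and 5.59. On that scale *PIR3*, *CIS3* and, narrowly, *HSP150* (4.87 against 4.84 on array 2) were highest on array 4, and *PIR1* was highest on array 2 at 3.17. Which array shows the family most strongly therefore turned on the scale.

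**Figure D2:**
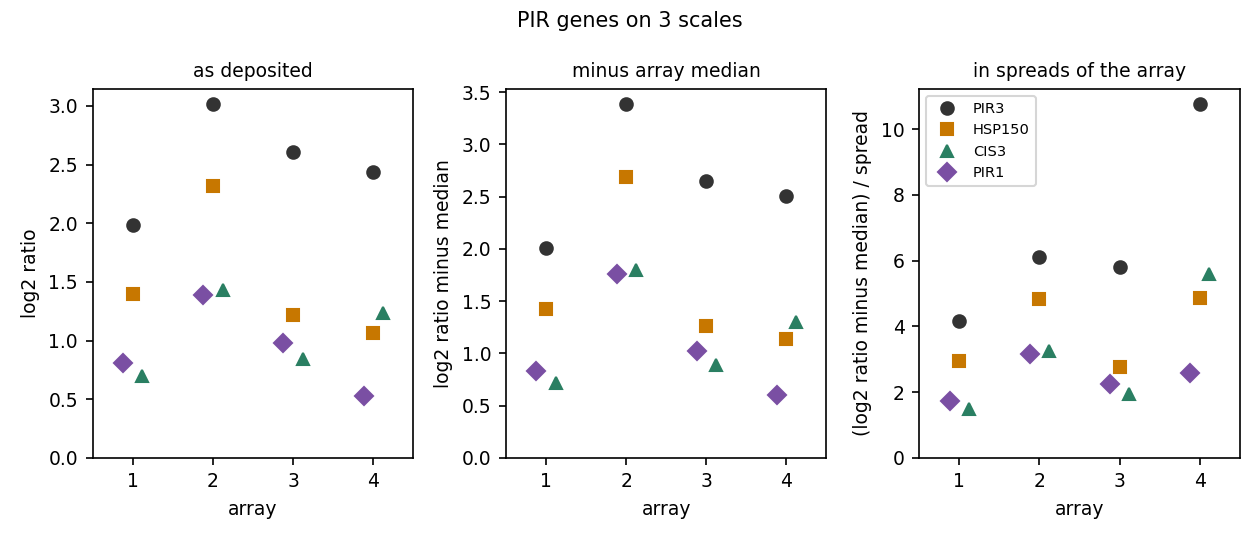
The 4 measured PIR genes on arrays 1 to 4 as deposited (left, log2 ratio), after subtraction of each array's median (middle, log2 units) and divided by each array's spread (right, spreads of the array). The order of genes within an array is the same in all panels by construction. Array 2 is highest in the left and middle panels, and array 4 in the right panel for *PIR3*, *CIS3* and *HSP150* but not for *PIR1*.

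No PIR gene passed a test of dye orientation. The half-difference between orientations (treated in Cy5 minus treated in Cy3) was 0.28 for *CIS3*, 0.22 for *PIR3*, 0.19 for *HSP150* and 0.03 for *PIR1*. The limma test of the dye term gave adjusted p-values of 0.523 to 0.956, and it called none of the 3299 genes (0%, with 427 at an unadjusted p under 0.05). The lack of calls does not show that orientation had no effect, since genes ranked more alike within an orientation than between. Half-differences between arrays 1 and 2 and arrays 3 and 4 were 0.36 for *HSP150*, 0.17 for *PIR1*, 0.01 for *CIS3* and −0.01 for *PIR3*. If arrays 1 and 2 shared a culture, *PIR3* and *CIS3* would thus have changed by nearly the same amount in both cultures (2.50 and 2.52 for *PIR3*, 1.06 and 1.04 for *CIS3*), and *HSP150* by 1.86 and 1.14. Under the other pairing, arrays 1 and 4 against 2 and 3, the culture means of *PIR3* were 2.21 and 2.81.

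The family lies in 2 clusters, by the gene order of the RefSeq table. *PIR1* and *PIR3* are adjacent on chromosome XI and transcribed away from each other. The ratio of *PIR3* lay above that of its partner by 1.58 ± 0.30 (SD over 4 arrays). On chromosome X, *PIR5* and *HSP150* are likewise transcribed away from each other, and *HSP150* and *CIS3* towards each other.

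Of the 12 genes that lie 3 to either side of each cluster, 4 had a value on every array. Among these *KDX1* alone passed, as higher, against 2.76% of all genes tested. *FMP33* passed in another fit, given below. *KDX1*, which encodes a paralog of Slt2 and is one of the 9 genes that set the direction, lies one gene beyond *PIR3* and read 2.25, 1.79, 4.70 and 3.44 on arrays 1 to 4. Between them, YKL162C had a single value of −0.05, on array 3. On the other side of the pair, *MCD4*, an enzyme of GPI anchor synthesis, read −0.18 and −0.19 on arrays 3 and 4 and was blank on the others. The kinase gene *TPK3*, the mitochondrial ribosomal protein gene *MRP49* and, beyond *KDX1*, the elongation factor gene *ELF1* did not pass, with means of −0.22 ± 0.25, −0.20 ± 0.58 and −0.08 ± 0.52 (SD over 4 arrays).

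Next to *PIR5*, *FMP33*, which encodes a mitochondrial protein of unknown function, read 0.54, 1.95 and 1.08 on arrays 1, 3 and 4. It passed in the fit of genes with values on at least 3 arrays (limma with a dye term, adjusted p = 0.0263), where 2.37% of 4429 genes passed as higher. Its 2 further neighbours, the J-protein gene *JJJ2* and YJL163C, did not pass there (adjusted p = 0.595 and 0.890). On the side of *CIS3*, the cell cycle inhibitor gene *FAR1* read 0.24, 0.35 and −0.21 on arrays 1, 3 and 4 and did not pass (adjusted p = 0.963). *SSY5*, for a protease of amino acid sensing, read −0.32 and −0.05 on arrays 3 and 4, and *FBP26* 0.62 and 0.44 on arrays 1 and 4.

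**Figure D3:**
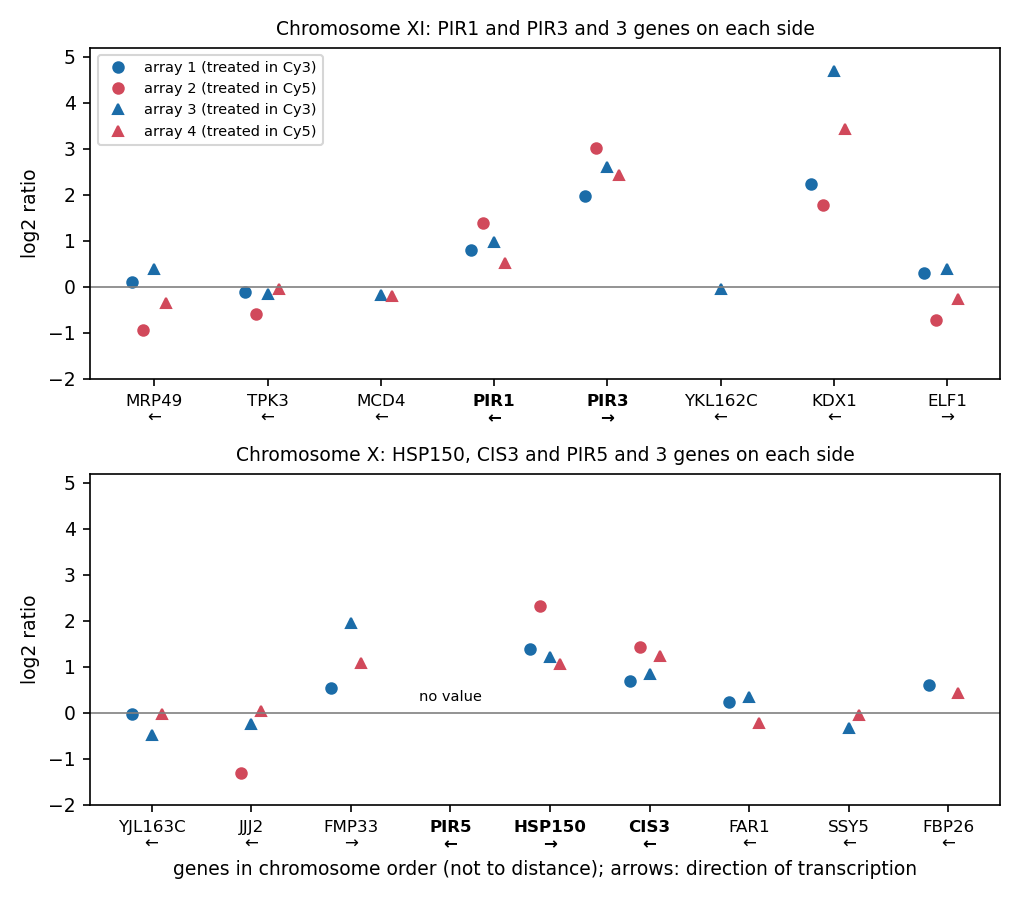
Log2 ratios on the 4 arrays for the PIR genes (bold) and 3 genes on either side, in chromosome order and not to distance, with arrows for the direction of transcription. On chromosome XI *PIR1*, *PIR3* and *KDX1* lie above 0 on all 4 arrays. On chromosome X *HSP150* and *CIS3* do, *FMP33* lies above 0 on its 3 arrays, and *PIR5* has no value.

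Other covalently bound wall proteins, most of them GPI proteins, gave a mixed picture. Of 16 tested, 6 rose and 3 fell, against 2.76% and 1.39% of all genes tested, with a median of 0.52. Of the 6, *CWP1*, *SED1*, *NCW2* and *PST1* belong to the 9 genes that set the direction. The mannoprotein genes *CWP1* (2.72 ± 0.08) and *SED1* (2.61 ± 0.80) rose by about as much as *PIR3*, and *NCW2* rose by 2.15 ± 0.50 (SD over 4 arrays). Those that fell included *TIR3*, at −2.08 ± 1.95. The abundant wall protein genes *CCW12* (−0.08, 1.08, 0.02 and 0.74) and *CCW14* (0.02, 1.02, 0.88 and 0.89) did not pass.

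Of 9 tested genes of the integrity pathway and its factors, 3 passed as higher (2.76% of all genes tested): *KDX1*, *SLT2* (2.00 ± 0.67) and *TUS1*, a Rho1 exchange factor gene that read 1.41, 3.18, −0.20 and −0.16 on arrays 1 to 4. *TUS1* did not pass on 4 arrays with a dye term, which left 2. The first 2 also belong to the genes that set the direction. *RLM1*, for the factor that acts on PIR promoters in wild-type cells, read 1.10, 1.19 and 0.46 on arrays 1, 3 and 4. It did not pass (limma with at least 3 arrays, adjusted p = 0.113). *SWI4*, for the DNA-binding subunit of the G1 factor SBF, which also acts with Slt2, did not pass at −0.48 ± 0.45.

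Most of the tested genes that modify Pir proteins or make their anchor in the wall did not pass. Of 10 tested genes for O-mannosylation and Kex2 processing, 1 passed as higher, against 2.76% of all genes tested. That gene, *PMT6*, read 1.07, 2.76, 0.12 and −0.30 on arrays 1 to 4. It was thus high on arrays 1 and 2 alone, and 0 of the 10 passed on 4 arrays with a dye term. *KEX2* (−0.12 ± 0.34), *PMT1* (0.15 ± 0.36) and *PMT4* (−0.09 ± 0.35) did not pass, and *PMT2* read 0.51, 1.68, −0.02 and −0.03. Of 10 tested genes for β-glucan synthesis and remodelling, 3 rose, against 2.76% of all genes tested: the glucanase gene *EXG1* (1.19 ± 0.35), the transglycosylase gene *BGL2* (0.88 ± 0.42) and *KRE6* (0.88 ± 0.44), which acts in glucan synthesis. *FKS1*, for a catalytic subunit of the glucan synthase, was above 0 on all 4 arrays (0.66 ± 0.27) but did not pass. *GSC2*, in the same list, did not pass either (0.34 ± 1.44).

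Lists set beside single members gave 1 call. Of 13 heat shock chaperone genes, set beside the heat-responsive *HSP150*, 10 had a value on every array. Of these 10, 0 passed (limma), against 2.76% of all genes tested called higher and 1.39% called lower. With shares this low, 0 of 10 does not set the list apart. Counts were also 0 unadjusted and 0 with a dye term, and the means lay between −0.41 and 0.33. Of 12 sporulation and spore wall genes, set beside *PIR5*, 1 had a value on every array. It was *CRR1*, which passed as lower although it read −0.39, −1.61, −4.41 and 0.03 and did not pass with a dye term, and 9 of the others were blank on all arrays.

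**Figure D4:**
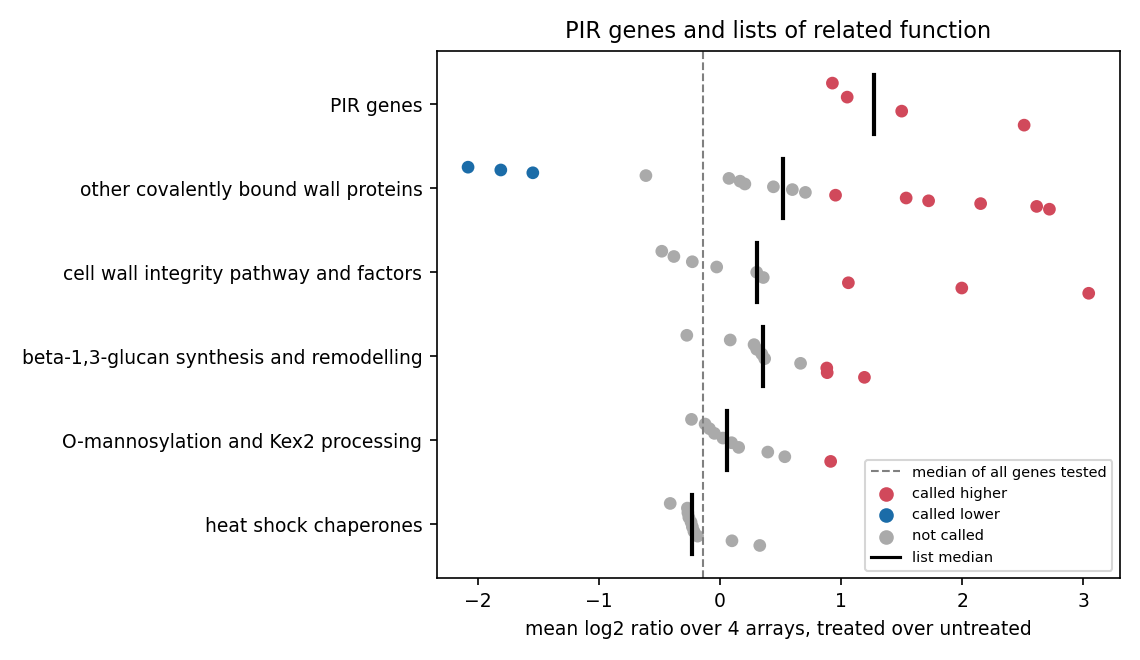
Mean log2 ratio over 4 arrays of each tested gene (points, red if called higher, blue if called lower, grey if not called) in the PIR family and 5 lists, with the list median as a black bar and the median of all genes tested (−0.14) as a dashed line. The 4 PIR genes lie between 0.93 and 2.51, while the other wall protein genes range from −2.08 to 2.72.

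By the root mean square difference of the 4 log2 ratios, the genes nearest to each member were not other PIR genes. This difference counts the level of the ratios as well as their pattern over arrays. Members with unlike means, such as *PIR3* and *PIR1*, thus cannot be near, and whether the PIR genes vary together was not tested. For *PIR3* the nearest genes were the glucose transporter gene *HXT1* (0.37), *CWP1* (0.39) and the stress gene *DDR2* (0.44). For *HSP150* they were *CRH1*, for an enzyme that joins chitin to glucan (0.16), and the trehalose synthesis genes *TSL1* (0.19) and *TPS2* (0.33). For *CIS3* they were *PCM1*, for an enzyme of the chitin precursor pathway (0.15), YNL058C (0.19) and *TOH1* (0.23). For *PIR1* they were the dihydroxyacetone kinase gene *DAK1* (0.14), the aldose reductase gene *GRE3* (0.16) and again *TOH1* (0.17). The closest pair within the family was *CIS3* and *PIR1* (0.36), where *PIR1* was the 16th nearest gene to *CIS3* and *CIS3* the 18th nearest to *PIR1*.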

How the data were processed

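The deposited table holds 1 log2 ratio per open reading frame and array. How the authors normalized it, and its base and numerator, are not given in the labels. Scanner files were not used. Of 6209 rows, 2 control rows were left out. Names were matched to RefSeq (assembly R64, names and gene order only), with 5654 rows matched by locus tag, 57 by 1 synonym and 496 kept as named. Rows of a gene were averaged (34 genes). Blanks made up 20.0% to 42.2% of rows per array and were kept as missing.

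Tests used limma 3.58.1 in R 4.3.3 on the 3299 genes with 4 values. Since arrays are not tied to cultures in the labels, the 2 culture means were tested against 0 under both pairings, the larger p was kept, and a gene was called at a Benjamini-Hochberg adjusted p under 0.05. The procedure was tested on simulated data. Members, lists and alternatives were chosen with earlier results of these data known. The text names the members, their chromosomal neighbours, up to 4 called genes per list and the 3 genes nearest to each member in their 4 ratios. The other listed genes named, which did not pass, were chosen after their values were seen. One listed group of genes is not reported here. The number of arrays limits the precision.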

Additional observations from a re-analysis of the deposited data

How the results depend on the processing

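The 4 measured PIR genes were above 0 in all 17 alternatives, which gave 2.25 to 2.77 for *PIR3*, 1.27 to 1.73 for *HSP150*, 0.87 to 1.26 for *CIS3* and 0.78 to 1.07 for *PIR1*. This sign could not have turned, since each gene lay above 0 on every array and every array's median lay below 0. The 4 genes passed in 15, 15, 13 and 10 of the alternatives. Some of these passes were fixed in advance, since a gene called in the main fit must pass in either single pairing and at an adjusted p under 0.1. The rule of one direction on all 4 arrays could not remove them either. Alternatives that used the same 4 values without centring also kept the same means, so these counts overstate how widely the calls were tried. Centring with scaling to a common spread gave 2.75, 1.58, 1.26 and 1.00 in the same order, none of which passed (limma, adjusted p = 0.0594, 0.0538, 0.0624 and 0.0624), so that 0 of 4 members and 2 genes in all (2 higher, 0 lower) were called, against 137 (91 and 46). Without a dye term on 4 arrays *PIR1* (0.93) did not pass (adjusted p = 0.0543) and 65 genes did. At an adjusted p under 0.01 *PIR1* (0.93) was the only member lost. Arrays 1 with 4 as the only pairing gave 306 calls, with all 4 members among them. Leaving out single arrays gave 0 to 3 members called and 5 to 83 genes in all, with 2.25 to 2.77 for *PIR3*, 1.27 to 1.73 for *HSP150*, 0.87 to 1.23 for *CIS3* and 0.78 to 1.07 for *PIR1*. Such a fit leaves 1 culture without its dye swap. The cause of these losses was not tested. Centring moved the median of all genes by 0.13.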
